A study of Mus musculus with 18 samples.

Results

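The enzymes that oxidize alcohol and acetaldehyde were followed at the RNA level in mouse liver. The 8 genes were *Adh1*, *Adh4*, *Adh5*, *Cyp2e1*, *Cat*, *Aldh2*, *Aldh1a1* and *Aldh1b1*. They were taken by gene symbol from a deposited table of 15052 genes, and each of the 8 was listed once. The study compared the livers of WT and *Apoe* knockout (*Apoe* KO) mice after pair-feeding or ethanol (EtOH) feeding. The 18 mice formed 4 groups. Of the WT mice, 4 were pair-fed and 5 EtOH-fed. Of the *Apoe* KO mice, 5 were pair-fed and 4, numbered 1, 2, 4 and 5, were EtOH-fed. All were 10 to 12 weeks old, were labelled female, and had 5 days on a Lieber-DeCarli liquid control diet before the groups parted. EtOH-fed mice then received liquid diet with 5% (v/v) EtOH for 10 days. On day 11 they were given EtOH by gavage at 5 g/kg and were killed 9 hours later. Pair-fed mice received an isocaloric diet for 10 days and then 9 g/kg dextrin-maltose by gavage. The knockout is carried by every cell of the body, so that no cell type is singled out by the genotype. WT mice were C57BL/6J and both lines were purchased, and whether they were littermates is not given in the sources used here.

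Ethanol is oxidized to acetaldehyde by alcohol dehydrogenases in the cytosol, by the cytochrome P450 CYP2E1 in the endoplasmic reticulum and by catalase in peroxisomes. Acetaldehyde is then oxidized to acetate by aldehyde dehydrogenases, with the mitochondrial enzyme ALDH2 as the main one in the liver. Hepatocytes hold most of these enzymes. CYP2E1 protein is known to be stabilized by its substrate ethanol, and a measurement of RNA does not show that step.

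The values were whole-number read counts that the authors had brought to almost the same sum in each mouse, and are called scaled read counts here. The sums lay between 32267493 and 32292618. The spacing of the low values gave estimates of the reads on genes in 16 of 18 mice, from 5.60 M to 52.2 M, and the least well covered value of the 8 genes, *Aldh1b1* in pair-fed WT mouse 1, rested on about 233 reads. Counting error was 6.55% of that value. Depth was unequal between the groups. In pair-fed WT mice 1, 2, 3 and 4 the estimates were 5.60, 10.6, 29.1 and 19.2 M. In pair-fed *Apoe* KO mice 1, 2, 3, 4 and 5 they were 8.52, 33.8, 23.9, 18.8 and 44.3 M. EtOH-fed *Apoe* KO mice 1, 2, 4 and 5 had 45.85, 13.5, 7.88 and 8.39 M. EtOH-fed WT mice 1, 3 and 4 had 52.2, 39.5 and 24.6 M. *Apoe*, the targeted gene, was at 611230 to 798431 in the 9 WT mice and at 8586 to 108651 in the 9 *Apoe* KO mice, without overlap. *Xist*, the RNA of the inactive X chromosome, was at 826 in EtOH-fed *Apoe* KO mouse 1 and at 15227 to 30379 in the other 17 mice, although all are labelled female. The methods of the study name mice of either sex. The comparisons that include that mouse were therefore also run without it. Hepatocyte markers were high in every mouse, with a summed level of 2456757 to 4310687 over the 8 genes of the list, and none of the 8 was called lower in any comparison. Of these, *Ttr* was lower in every EtOH-fed than in every pair-fed WT mouse but did not pass the test (log2 fold change −0.27, adjusted p = 0.266). Nothing in the labels ties the mice of a group to separate litters or cages, so that p-values measure the spread between these mice.

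Groups were compared by limma on log2(scaled read count + 1), with Benjamini-Hochberg adjusted p-values (all 15052 genes) called at 0.05. Log2 fold changes are on that scale. In both genotypes, EtOH feeding went with lower RNA of some of the alcohol dehydrogenase, P450 and catalase genes. *Adh1* and the 3 aldehyde dehydrogenase genes had no called change in either genotype. In WT mice, *Adh4* and *Cat* were called lower, and the *Cat* call was lost in several alternative fits given below. In *Apoe* KO mice, *Adh4*, *Cyp2e1*, *Cat* and *Adh5* were called lower. *Cyp2e1* (log2 fold change −0.51) and *Adh5* (−0.19) were also lower in every EtOH-fed than in every pair-fed WT mouse, but were not called there. In the main fit, comparing the EtOH differences of the genotypes (diet by genotype interaction) called no member. In whole liver, fewer cells of a type and less RNA per cell cannot be told apart. No member passed the test between the genotypes, in pair-fed or in EtOH-fed mice.

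The promoters of *Adh4*, *Cyp2e1* and *Cat* are shown because these genes had the largest drops with EtOH in both genotypes. Each window runs from 250 bases before the RefSeq start to 50 bases after it, 5′ to 3′ on the strand of the gene, in build GRCm38.p6. The *Adh4* window is chr3:138415247-138415546 on the plus strand. The *Cyp2e1* window is chr7:140763569-140763868 on the plus strand, and the *Cat* window is chr2:103485104-103485403 on the minus strand. Capitals mark matches, on either strand, to 6 short motifs that were searched.
Adh4: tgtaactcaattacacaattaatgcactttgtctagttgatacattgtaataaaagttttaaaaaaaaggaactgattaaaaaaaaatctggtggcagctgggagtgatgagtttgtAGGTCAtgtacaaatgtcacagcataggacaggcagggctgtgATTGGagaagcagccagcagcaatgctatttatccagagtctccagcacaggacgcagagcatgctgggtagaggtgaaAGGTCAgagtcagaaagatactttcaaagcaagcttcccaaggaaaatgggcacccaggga
Cyp2e1: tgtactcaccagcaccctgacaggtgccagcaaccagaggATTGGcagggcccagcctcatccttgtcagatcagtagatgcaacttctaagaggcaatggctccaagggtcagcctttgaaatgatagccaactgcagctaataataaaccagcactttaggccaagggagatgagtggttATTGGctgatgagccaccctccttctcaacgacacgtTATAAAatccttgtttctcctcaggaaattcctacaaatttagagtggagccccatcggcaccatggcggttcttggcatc
Cat: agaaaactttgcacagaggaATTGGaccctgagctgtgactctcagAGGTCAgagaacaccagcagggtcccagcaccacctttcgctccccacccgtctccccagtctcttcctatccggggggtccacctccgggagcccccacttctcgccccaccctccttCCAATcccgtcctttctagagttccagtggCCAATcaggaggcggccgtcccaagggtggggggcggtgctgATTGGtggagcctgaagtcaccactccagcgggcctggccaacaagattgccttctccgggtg

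Of these motifs, TATAAA is the core of a TATA box, CCAAT is the site named after its letters, and AGGTCA is the core that many nuclear receptors read. GTTAAT is part of the HNF1 site, TTGCNNAA is a C/EBP-type site and CACGTG is an E-box. The *Adh4* window held 2 matches to AGGTCA and 1 to CCAAT. The *Cyp2e1* window held 1 match to TATAAA and 2 to CCAAT, and the *Cat* window held 4 matches to CCAAT and 1 to AGGTCA. The other motifs were not matched in these 3 windows, and no match overlapped another. Of the 32851 RefSeq promoter windows of this length, 37.4% held CCAAT, 16.3% held AGGTCA, 13.6% held TATAAA, 10.8% held TTGCNNAA, 7.15% held CACGTG and 7.10% held GTTAAT. No motif was thus found in all 3 windows except CCAAT, which is also the most common of the 6. A match of letters is a description of the sequence and does not show that a factor bound there.

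The 3 alcohol dehydrogenase genes lie in a single cluster on chromosome 3. In the GENCODE annotation of GRCm38, *Adh1* spans chr3:138260991-138290698, *Adh4* chr3:138415466-138430892 and *Adh5* chr3:138443093-138455499, all on the plus strand. The cluster holds 7 Adh genes, counting a pseudogene, over 238 kb, and 12.2 kb separate the end of *Adh4* from the start of *Adh5*. The other 5 members lie apart. *Cyp2e1* is at chr7:140763739-140774987 (plus strand), *Cat* at chr2:103453849-103485160 (minus) and *Aldh2* at chr5:121566027-121593824 (minus). *Aldh1a1* is at chr19:20492715-20643465 (plus) and *Aldh1b1* at chr4:45799022-45804604 (plus). *Aldh1b1* has 2 exon blocks, the fewest of the 8, and *Aldh1a1* has 21, the most.

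A few stretches of these genes are shared with others, and the strand setting of the counting is not given in the sources used here. The antisense gene *Gm16559* covers 1008 of the 2233 exonic bases of *Adh1*, so that reads of the pair could not be told apart without strand. *C730002L08Rik*, on the opposite strand, covers 555 of 4937 exonic bases of *Aldh1a1*. *Gm42879* covers 130 of 5126 exonic bases of *Aldh2*. Of the distinct stretches of 50 bases in the transcripts of *Aldh1a1*, 3.06% also occur in another gene, in each case its paralog *Aldh1a7*. The share was 3.87% for *Cyp2e1*, mostly shared with transcripts of *Fcho2*, and at most 0.291% for the other 6 genes.

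Levels of different genes were compared per kb of exon, with all annotated exon bases of a gene as its length. Which transcripts were made was not measured, so that the order between genes depends on this length. It was 2613 bases for *Cat* and 5126 for *Aldh2*. By mean scaled read count in pair-fed WT mice, *Aldh2* (72716) was above *Cat* (57306). *Cyp2e1* was the highest of the 8 in every group and ranked 14 of 15052 genes by its mean scaled read count, before division by length. In pair-fed WT mice, the mean per kb fell in the order *Cyp2e1* (101317 ± 13670), *Adh1* (42373 ± 3005), *Cat* (21931 ± 2108), *Aldh2* (14186 ± 1480), *Aldh1a1* (5362 ± 1253), *Adh5* (2291 ± 113), *Adh4* (1634 ± 156) and *Aldh1b1* (712 ± 190; SD, n = 4). The ranges of neighbours in that order did not overlap. The pair-fed *Apoe* KO mice showed the same order, again without overlap between neighbours. EtOH-fed mice differed from it at the bottom, where *Aldh1b1* stood above *Adh4*. In EtOH-fed WT mice, *Aldh1b1* (1040 ± 455, n = 5) overlapped *Adh4* (781 ± 156) and exceeded it in 3 of 5 mice. In EtOH-fed *Apoe* KO mice, *Aldh1b1* (1014 ± 175, n = 4) exceeded *Adh4* (632 ± 122) in all 4 mice, without overlap. The ranges of *Cat* and *Aldh2* also met in both EtOH-fed groups, where *Cat* was above *Aldh2* in 5 of 5 WT and in 3 of 4 *Apoe* KO mice.

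**Figure D1:**
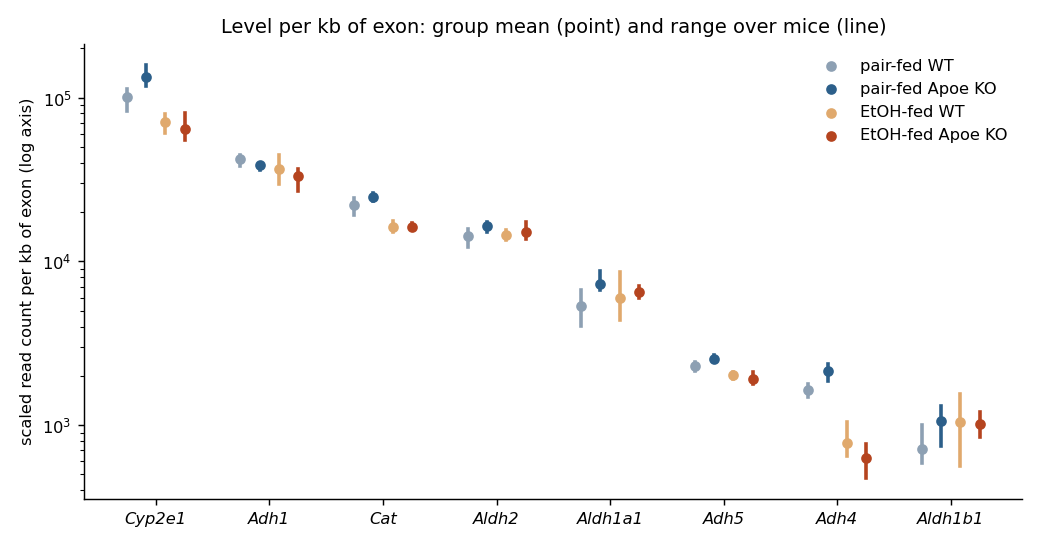
Scaled read count per kb of exon (log axis) of the 8 enzymes in the 4 groups, with the group mean as a point and the range over 4 or 5 mice as a line. *Cyp2e1* is highest in every group, and *Adh4* falls below *Aldh1b1* in both EtOH-fed groups.

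*Adh4* encodes the class II alcohol dehydrogenase, a liver enzyme that also oxidizes retinol and works on ethanol mainly at high concentrations. Its scaled read counts were 2190, 2550, 2580 and 2160 in pair-fed WT mice and 936, 1141, 1059, 1515 and 1008 in EtOH-fed WT mice. The *Apoe* KO values were 2874, 3354, 2709, 3249 and 3430 after pair-feeding and 943, 687, 1118 and 915 after EtOH feeding. Every EtOH-fed mouse was below every pair-fed mouse, in both genotypes. The pair-fed *Apoe* KO mice were all above the pair-fed WT mice. In WT mice the EtOH-fed level was 0.473 of the pair-fed level (log2 fold change −1.08, SE 0.14, adjusted p = 0.000326). It was 0.290 in *Apoe* KO mice (log2 fold change −1.78, SE 0.13, adjusted p = 4.16e-06), and the gene ranked 9 of 15052 by its p-value. Without EtOH-fed *Apoe* KO mouse 1 the log2 fold change was −1.81, with an adjusted p of 2.43e-05.

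*Adh1* encodes the class I enzyme, the main alcohol dehydrogenase of the mouse liver. It was at 97740, 100232, 84975 and 95529 in pair-fed WT mice and at 78502, 78126, 88711, 66201 and 99730 in EtOH-fed WT mice. *Apoe* KO mice had 89516, 80181, 89490, 87547 and 88926 after pair-feeding and 77180, 82074, 60331 and 77081 after EtOH feeding. The groups overlapped in both genotypes, with mouse 5 of the EtOH-fed WT group near the top of the pair-fed range and mouse 4 of either EtOH-fed group far below it. The log2 fold change with EtOH was −0.21 in WT mice (95% interval −0.53 to 0.10) and −0.24 in *Apoe* KO mice (−0.50 to 0.01). Neither passed the test, with adjusted p-values of 0.377 and 0.163, and without EtOH-fed *Apoe* KO mouse 1 the latter was 0.156 with a log2 fold change of −0.26.

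*Adh5* encodes the class III enzyme, which clears formaldehyde and S-nitrosoglutathione and has little activity on ethanol. It was at 12602, 13043, 12315 and 11592 in pair-fed WT mice and at 10355, 11111, 11038, 11416 and 10509 in EtOH-fed WT mice. The values in *Apoe* KO mice were 13752, 13417, 14480, 14048 and 13097 after pair-feeding and 11381, 9806, 9580 and 10389 after EtOH feeding. All EtOH-fed mice were below all pair-fed mice of their genotype, and all pair-fed *Apoe* KO mice were above the pair-fed WT mice. *Adh5* was lower with EtOH in *Apoe* KO mice, at 0.747 of the pair-fed level (log2 fold change −0.42, SE 0.08, adjusted p = 0.0030). Without mouse 1 the values were −0.47 and 0.00228. In WT mice the log2 fold change of −0.19 did not pass the test (95% interval −0.38 to 0.01, adjusted p = 0.196).

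*Cyp2e1* encodes the P450 of the microsomal ethanol-oxidizing system, which uses NADPH and oxygen. Its scaled read counts were 242506, 215874, 238185 and 178002 in pair-fed WT mice and 164833, 131500, 165430, 135057 and 171496 in EtOH-fed WT mice. Those of *Apoe* KO mice were 255301, 264195, 342807, 293727 and 286452 after pair-feeding and 136346, 174913, 118964 and 121368 after EtOH feeding. The groups did not overlap with diet in either genotype, although pair-fed WT mouse 4 came close to the EtOH-fed WT mice. The EtOH-fed level was 0.475 of the pair-fed level in *Apoe* KO mice (log2 fold change −1.07, SE 0.16, adjusted p = 0.000476). Without mouse 1 it was −1.08, with an adjusted p of 0.00133. In WT mice the log2 fold change of −0.51 (SE 0.17) had an adjusted p of 0.0656 and was not called. Without pair-fed WT mouse 4 it was −0.60 with an adjusted p of 0.0401. With array quality weights the adjusted p was 0.0425, and with all 4 groups in the fit it was 0.0362.

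*Cat* encodes catalase, which can oxidize ethanol with hydrogen peroxide. It was at 57778, 57476, 63714 and 50256 in pair-fed WT mice and at 42145, 41428, 41589, 46156 and 39538 in EtOH-fed WT mice. Its level in *Apoe* KO mice was 62612, 68409, 63748, 65981 and 60949 after pair-feeding and 40611, 43983, 44566 and 40696 after EtOH feeding. The EtOH-fed mice of both genotypes fell in a narrow band below all pair-fed mice. The EtOH-fed level was 0.660 of the pair-fed level in *Apoe* KO mice (log2 fold change −0.60, SE 0.10, adjusted p = 0.000776), and −0.58 on the log2 scale without mouse 1 (adjusted p = 0.00209). In WT mice it was 0.738 (log2 fold change −0.44, SE 0.12, adjusted p = 0.0268). That call was lost with median-of-ratios size factors (adjusted p = 0.0548) and with the replicate number as a block (0.109). It was also lost without pair-fed WT mouse 1 (0.0628), 2 (0.0712) or 3 (0.0719) and without EtOH-fed WT mouse 1 (0.0550) or 2 (0.0601), while the log2 fold change stayed between −0.50 and −0.39 in all 9 fits that left out a mouse.

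*Aldh2* encodes the mitochondrial aldehyde dehydrogenase with high affinity for acetaldehyde. It was at 74397, 72238, 81305 and 62924 in pair-fed WT mice and at 71695, 73761, 80172, 74917 and 69133 in EtOH-fed WT mice. The *Apoe* KO mice were at 87112, 80809, 85703, 89521 and 77283 after pair-feeding and at 88769, 71459, 78177 and 70160 after EtOH feeding. The groups overlapped in every comparison. The log2 fold change with EtOH was 0.03 in WT mice (95% interval −0.25 to 0.30, adjusted p = 0.914) and −0.13 in *Apoe* KO mice (−0.37 to 0.12, adjusted p = 0.451). Without EtOH-fed *Apoe* KO mouse 1, which had the highest *Aldh2* of its group, the latter was −0.20 (adjusted p = 0.221). In WT mice the interval thus runs from −15.7% to 23.3%, and a change within that range is not excluded.

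*Aldh1a1* encodes a cytosolic aldehyde dehydrogenase that also makes retinoic acid from retinaldehyde. It was at 19770, 29920, 33229 and 22968 in pair-fed WT mice and at 24224, 21719, 42283, 26305 and 33267 in EtOH-fed WT mice. Among *Apoe* KO mice it was at 36720, 33095, 34703, 42984 and 32773 after pair-feeding and at 33114, 34931, 29382 and 31587 after EtOH feeding. The WT mice were spread widely, with a coefficient of variation of 28.1% in the EtOH-fed group, and the *Apoe* KO mice lay closer together, with 7.29% in the EtOH-fed group. The log2 fold change with EtOH was 0.15 in WT mice (95% interval −0.29 to 0.58, adjusted p = 0.681) and −0.16 in *Apoe* KO mice (−0.39 to 0.07, adjusted p = 0.315), and −0.17 there without mouse 1 (adjusted p = 0.318).

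*Aldh1b1* encodes a mitochondrial aldehyde dehydrogenase with lower affinity for acetaldehyde. It was at 1343, 1430, 2286 and 1483 in pair-fed WT mice and at 2513, 3556, 1359, 3233 and 1286 in EtOH-fed WT mice. In *Apoe* KO mice it was at 2707, 1898, 3009, 2757 and 1719 after pair-feeding and at 2770, 2046, 2567 and 1938 after EtOH feeding. In the EtOH-fed WT group, mice 3 and 5 were at the pair-fed level and mice 1, 2 and 4 were above all pair-fed WT mice. Mice 3 and 5 also had the highest *Adh1* and the highest *Aldh1a1* of that group. The coefficient of variation of *Aldh1b1* was 43.7% there, the largest of the 8 genes in any group, and the log2 fold change with EtOH of 0.46 in WT mice did not pass the test (95% interval −0.17 to 1.08, adjusted p = 0.331). It was −0.03 in *Apoe* KO mice (−0.40 to 0.33, adjusted p = 0.909) and −0.12 without mouse 1 (adjusted p = 0.667).

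**Figure D2:**
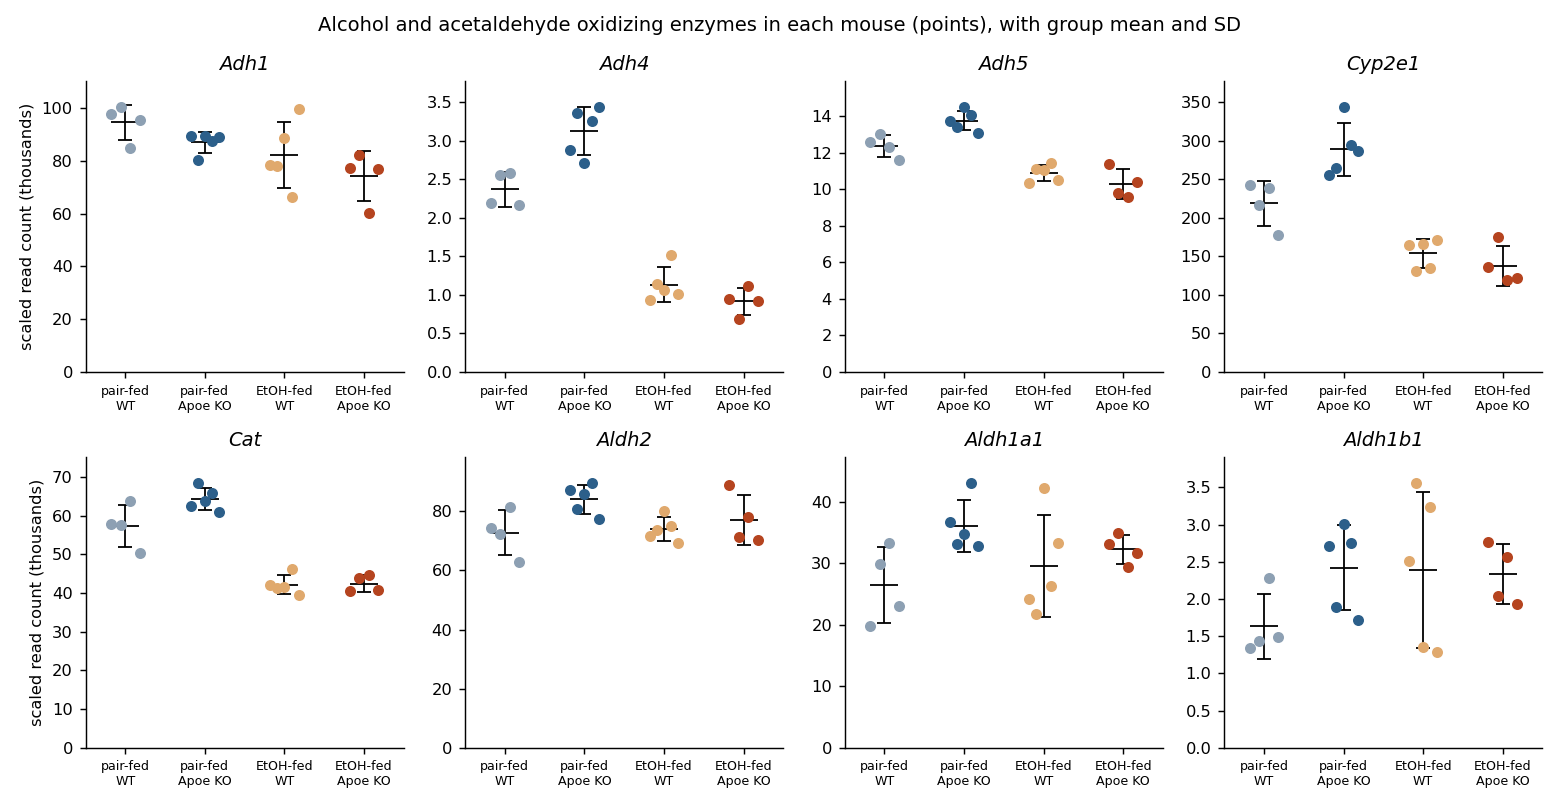
Scaled read counts (linear axes from 0) of the 8 enzymes in each mouse, by group, with the mean and SD in black. *Adh4*, *Adh5*, *Cyp2e1* and *Cat* are lower in EtOH-fed than in pair-fed mice without overlap in both genotypes, whereas the 3 aldehyde dehydrogenase genes overlap.

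The members' calls were read against those of all genes. With EtOH in WT mice, 2 of 8 members were called lower and 0 higher, beside 6.52% of all genes called lower and 6.19% called higher. The groups did not overlap for 4 of 8 members, all lower, beside 14.4% of all genes. In *Apoe* KO mice, 4 of 8 members were called lower and 0 higher, beside 6.92% and 16.3% of all genes. Again 4 of 8 did not overlap, beside 20.0% of all genes. The median log2 fold change of the members was −0.20 in WT and −0.33 in *Apoe* KO mice, where the medians of all genes were −0.01 and 0.13. With median-of-ratios size factors the all-gene median in *Apoe* KO mice was 0.00, and the share of higher genes among those called there went from 70.1% to 50.8%. All values here are on the deposited scale, and the same 4 members were called lower in *Apoe* KO mice on either.

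The diet by genotype interaction asked whether the EtOH difference was larger in *Apoe* KO than in WT mice. No member was called by limma, beside 2.84% of all genes. An unadjusted p under 0.05 was reached by 3 of 8, beside 2451 of all 15052 genes. *Adh4* had the largest difference, with a further −0.70 on the log2 scale in *Apoe* KO mice (SE 0.20, adjusted p = 0.0573). For *Cyp2e1* it was −0.57 (SE 0.23, adjusted p = 0.195) and for *Adh5* −0.24 (SE 0.11, adjusted p = 0.290). All 8 estimates were below 0, where the median of all genes was 0.11, and −0.03 with median-of-ratios size factors. These estimates reuse the pair-fed mice, so that a higher level in pair-fed *Apoe* KO mice by itself makes them lower. They are therefore not independent of the diet differences or of the pair-fed genotype differences below. The *Adh4* interaction was called with median-of-ratios size factors (−0.84, adjusted p = 0.0186), with array quality weights (−0.72, adjusted p = 0.0463) and without EtOH-fed *Apoe* KO mouse 4 (−0.81, adjusted p = 0.0423). Without mouse 1 of that group it was −0.72, with an adjusted p of 0.0655, and the interactions of *Cyp2e1* (−0.57, adjusted p = 0.224) and *Adh5* (−0.29, adjusted p = 0.174) were also not called.

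In pair-fed mice, the *Apoe* KO and WT livers differed in no member by limma, beside 0.870% of all genes called higher and 0.864% called lower. An unadjusted p under 0.05 was reached by 4 of 8 members, beside 2991 of all 15052 genes. The groups did not overlap for 3 of 8, beside 7.03% of all genes. These were *Adh4*, *Adh5* and *Cyp2e1*, all higher in *Apoe* KO mice. The estimates were above 0 for 7 of 8, where the median of all genes was −0.0047. *Adh4* came nearest to the threshold (log2 fold change 0.40, SE 0.10, adjusted p = 0.0585), and *Aldh1b1* (0.56, SE 0.18), *Aldh1a1* (0.47, SE 0.15) and *Cyp2e1* (0.40, SE 0.18) had adjusted p-values of 0.121, 0.117 and 0.237. Without pair-fed WT mouse 3, which had the highest *Aldh1a1* and *Aldh1b1* of its group, *Adh4* (adjusted p = 0.0412), *Aldh1a1* (0.0443) and *Aldh1b1* (0.0358) were called higher.

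In EtOH-fed mice, no member was called between the genotypes by limma. Of all genes, 4.25% were called higher and 0.445% lower in *Apoe* KO mice. No member had an unadjusted p under 0.05, beside 2845 of all 15052 genes. None was free of overlap, beside 8.13% of all genes. With size factors the share of higher genes among those called went from 90.5% to 75.1%, and in the interaction from 91.6% to 77.8%. Among members the largest estimate was −0.31 for *Adh4* (95% interval −0.66 to 0.05, adjusted p = 0.345). The other 7 lay between −0.16 and 0.17, and the signs for *Cat*, *Aldh2* and *Aldh1b1* turned with the scaling. Without EtOH-fed *Apoe* KO mouse 1 no member was called either, *Adh4* was at −0.33 (adjusted p = 0.374), and *Aldh2* (−0.013) and *Aldh1b1* (−0.016) changed sign. The macrophage markers moved in the same comparison, with 7 of 7 higher in *Apoe* KO mice and summed levels of 12355 to 23398 against 5064 to 9178 in WT mice. The median log2 fold change of these markers was 1.35, and 1.23 without EtOH-fed *Apoe* KO mouse 1, with 7 of 7 still called. Of the 7 stellate cell and fibroblast markers, 2 were higher, the collagen genes *Col1a1* (3.99-fold) and *Col3a1* (3.36-fold). The summed level of that list was 18113 to 33135 in EtOH-fed *Apoe* KO and 10596 to 17409 in EtOH-fed WT mice, without overlap. Of 6 cholangiocyte markers 1 was higher, and of 3 markers of kidney, intestine and pancreas 1 was lower. No endothelial, hepatocyte, neutrophil, lymphocyte or erythroid marker was called in this comparison.

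**Figure D3:**
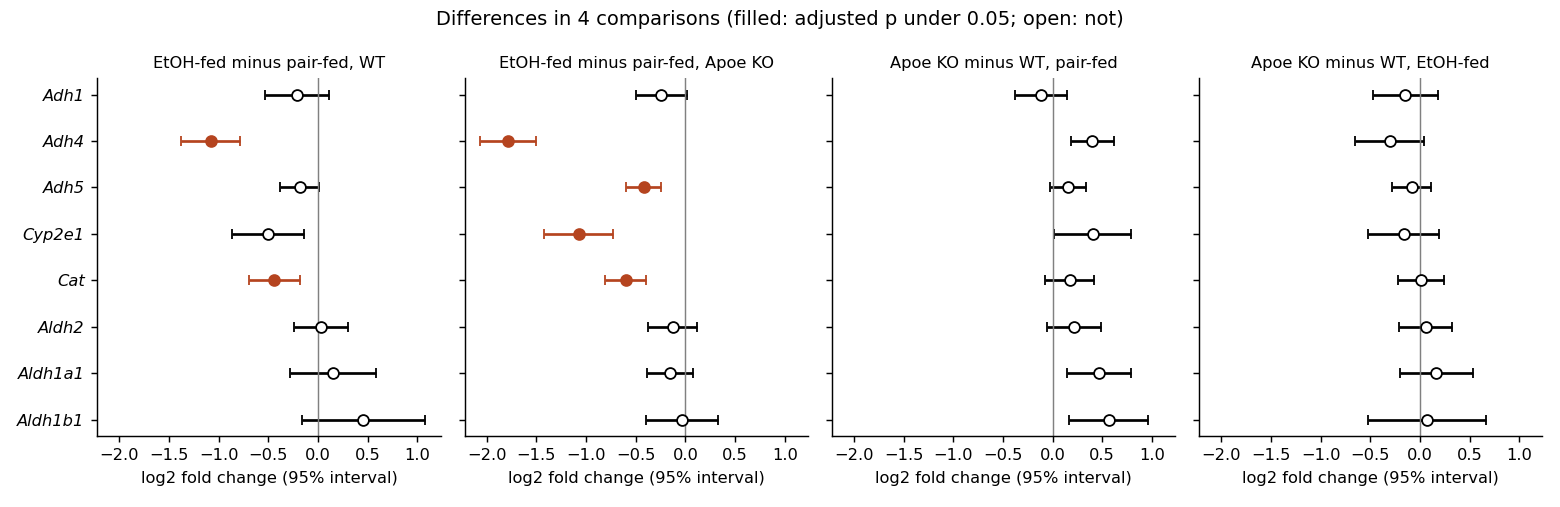
Log2 fold change with its 95% interval for the 8 enzymes in the 4 comparisons. Filled red points passed an adjusted p of 0.05, which 2 genes did with EtOH in WT mice, 4 with EtOH in *Apoe* KO mice and none between genotypes.

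Markers of other liver cells also moved with the diet. Of 6 endothelial markers, 5 were higher with EtOH in each genotype, and their summed level was 4667 to 5369 in pair-fed and 6339 to 8416 in EtOH-fed WT mice. In *Apoe* KO mice it was 3605 to 5133 and 6247 to 10601. Of 7 stellate cell and fibroblast markers, 6 were higher with EtOH in *Apoe* KO mice (5 without mouse 1) and none was called in WT mice. Of 8 hepatocyte markers, 3 were higher with EtOH in WT mice and 1 in *Apoe* KO mice, and their median log2 fold changes were 0.05 and −0.01. Of 7 macrophage markers, 3 were lower with EtOH in WT mice and 3 higher in *Apoe* KO mice. None of these markers was at 0 in any mouse. Of 6 cholangiocyte markers, 2 were lower in WT mice and 1 was higher in *Apoe* KO mice, where 2 of 4 erythroid markers were also higher. Without EtOH-fed *Apoe* KO mouse 1 these were 2 and 0. The counts for the endothelial, macrophage and hepatocyte markers were the same without that mouse. None of 3 neutrophil and 7 lymphocyte markers was called with diet. Of 3 markers of kidney, intestine and pancreas, 2 were lower in WT mice and 1 in *Apoe* KO mice. The part of these cells in the results for the 8 enzymes was not tested.

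A ratio of 2 genes within a mouse does not depend on how that mouse was scaled. Of 4 ratios in 4 comparisons, none had an adjusted p under 0.05 over the 16 exact permutation tests (two-sided), in which the smallest p possible was 0.0159. After adjustment, a comparison with that p could pass only if several others had small p-values too. The tests could therefore not call a single separated ratio, and no conclusion is drawn from the absence of a call. *Cyp2e1* stood at 1.86 to 2.80 times *Adh1* in pair-fed WT mice and at 2.85 to 3.83 times *Adh1* in pair-fed *Apoe* KO mice, without overlap. After EtOH feeding it was at 1.68 to 2.10 times *Adh1* in WT and at 1.58 to 2.13 times in *Apoe* KO mice. In *Apoe* KO mice the mean log2 ratio differed by −0.83 with EtOH (exact permutation p = 0.0159, adjusted p = 0.127) and by −0.81 without EtOH-fed *Apoe* KO mouse 1, and between the pair-fed genotypes it differed by 0.52 (exact permutation p = 0.0159, adjusted p = 0.127). In WT mice the difference with EtOH was −0.29, and the groups overlapped (exact permutation p = 0.0794, adjusted p = 0.212).

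The share of *Cat* against *Adh1* differed with EtOH by −0.36 on the log2 scale in *Apoe* KO mice (exact permutation p = 0.0635, adjusted p = 0.203) and by −0.23 in WT mice (exact permutation p = 0.238, adjusted p = 0.423). The log2 ratio of *Aldh2* to *Adh1*, the main enzyme of either step, was −0.38 ± 0.23 (SD, n = 4) in pair-fed WT and −0.05 ± 0.09 (SD, n = 5) in pair-fed *Apoe* KO mice. That difference of 0.33 had an exact permutation p of 0.0317 and an adjusted p of 0.169. After EtOH feeding the ratio was −0.14 ± 0.25 in WT and 0.06 ± 0.27 in *Apoe* KO mice. *Aldh1b1* was at 1.70% to 4.82% of *Aldh2*, by scaled read count, in EtOH-fed WT mice and at 2.76% to 3.28% in EtOH-fed *Apoe* KO mice. The 4 comparisons of that ratio had exact permutation p-values of 0.111 to 0.952.

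**Figure D4:**
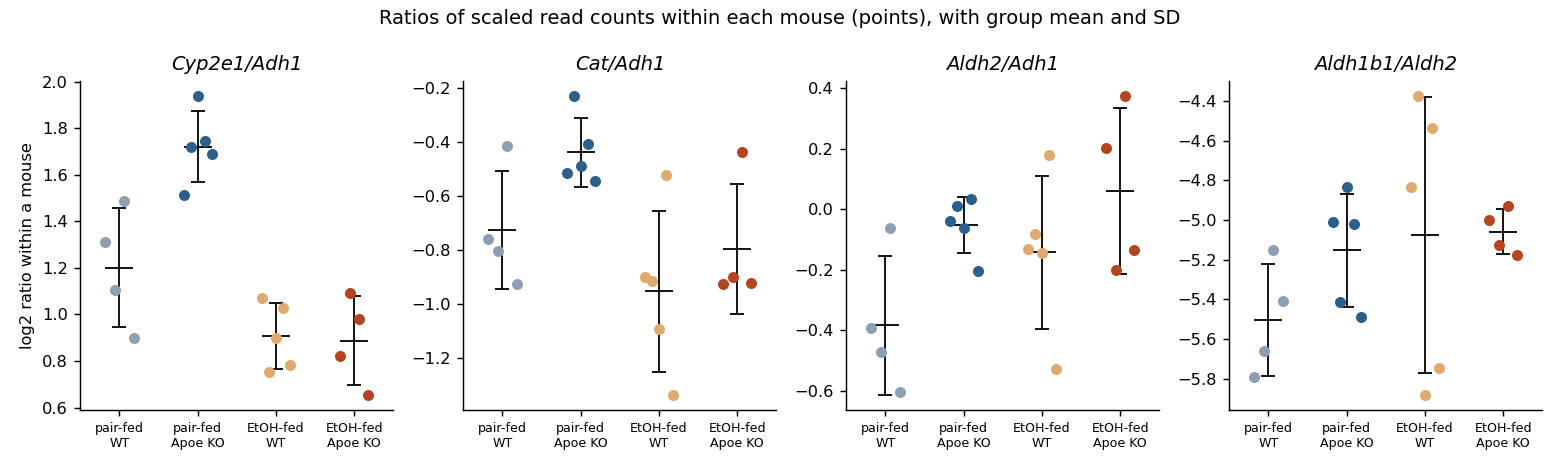
Log2 ratio of scaled read counts within each mouse for 4 pairs of enzymes, by group, with the mean and SD in black. The *Cyp2e1* to *Adh1* ratio of all 5 pair-fed *Apoe* KO mice lies above that of every other mouse, and the other 3 ratios overlap between neighbouring groups.

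The other genes of ethanol and aldehyde handling were followed in 8 lists. Of the other Adh genes, *Adh7*, the class IV retinol-oxidizing enzyme next to *Adh1* in the cluster, was lower with EtOH in WT (log2 fold change −0.51) and in *Apoe* KO mice (−0.85). Of 17 other Aldh genes in the table, 0 were higher and 3 lower in WT mice, namely *Aldh3b3* (−0.89), *Aldh3a2* (−0.43), the fatty aldehyde dehydrogenase, and *Aldh9a1* (−0.38). In *Apoe* KO mice 2 were higher and 5 lower. The higher genes were *Aldh18a1* (1.19), which makes a proline precursor, and *Aldh1a3* (1.17). *Aldh3a2* (−0.49) and *Aldh4a1* (−0.45), a proline-degrading enzyme, had the largest drops among the genes called. *Aldh1a3* was not called without EtOH-fed *Apoe* KO mouse 1 (1.11, adjusted p = 0.0543). None of the 17 was called between the genotypes.

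Acetate, the product of the second step, is activated to acetyl-CoA by ACSS2 in the cytosol. *Acss2* was at 6614 ± 1153 (SD, n = 4) in pair-fed WT mice, 2790 ± 491 (n = 5) in pair-fed *Apoe* KO, 2047 ± 251 (n = 5) in EtOH-fed WT and 1873 ± 267 (n = 4) in EtOH-fed *Apoe* KO mice. It was lower with EtOH in WT (log2 fold change −1.68, adjusted p = 1.06e-05) and in *Apoe* KO mice (−0.57, adjusted p = 0.00808). It was also lower in pair-fed *Apoe* KO than in pair-fed WT mice (−1.25, adjusted p = 0.000502). The diet difference was smaller in *Apoe* KO mice (interaction 1.11, adjusted p = 0.00571). Without EtOH-fed *Apoe* KO mouse 1 the diet difference in *Apoe* KO mice was −0.64 (adjusted p = 0.00697) and the interaction 1.04 (adjusted p = 0.00684). The other 3 genes of this list were called in no comparison.

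Both dehydrogenase steps give NADH, and the electrons of NADH made in the cytosol enter mitochondria through shuttles. Of 10 shuttle genes, 2 were higher and 1 lower with EtOH in WT mice, and 3 were higher and 1 lower in *Apoe* KO mice. *Got1*, the cytosolic aspartate aminotransferase, was higher in WT (1.24) and *Apoe* KO mice (1.28), as was the aspartate-glutamate carrier gene *Slc25a12* (0.82 and 0.49). *Gpd2* (−0.45) was lower in WT mice and *Slc25a13* (−0.75) in *Apoe* KO mice, where *Mdh2* (0.38) was higher. No shuttle gene was called between the genotypes or in the interaction.

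Of 8 genes for microsomal electron supply and other P450 enzymes that oxidize ethanol, 2 were higher and 1 lower with EtOH in WT mice. These were *Cyp3a11* (1.05), *Cyp1a2* (0.76) and the cytochrome b5 reductase gene *Cyb5r3* (−0.61). *Cyp1a2* was also higher in EtOH-fed *Apoe* KO mice (0.44), where *Cyb5b* was lower (−0.46). Between the pair-fed genotypes, *Cyp1a2* was higher (0.70) and *Cyb5r3* lower (−0.49) in *Apoe* KO mice, and the interaction of *Cyb5r3* was 0.47 (adjusted p = 0.0457). That interaction was not called without EtOH-fed *Apoe* KO mouse 1 (0.45, adjusted p = 0.0710).

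Catalase draws on hydrogen peroxide made in peroxisomes. Of 10 genes for enzymes that produce hydrogen peroxide, 1 was higher and 4 lower with EtOH in WT mice. In *Apoe* KO mice, 1 was higher and 3 lower. The polyamine oxidase gene *Paox* fell in both (−1.24 and −1.08), and the bile acid branch oxidase gene *Acox2* rose in both (0.95 and 0.73). *Hao2* (−0.64) was lower in WT mice, and *Hao1* (−0.70) and *Pipox* (−0.50) in *Apoe* KO mice. *Hao2*, a hydroxyacid oxidase gene, was lower in *Apoe* KO than in WT mice on either diet (−1.58 pair-fed and −1.73 EtOH-fed). It was the only gene of the 8 lists called between the EtOH-fed genotypes, and the EtOH-fed groups overlapped (80 to 606 against 440 to 796). It was not called there without EtOH-fed *Apoe* KO mouse 1 (−1.36, adjusted p = 0.0993).

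Other aldehydes are handled by reductases and oxidases, of which 10 were in the table. *Aox3*, an aldehyde oxidase gene, was lower with EtOH in WT (−0.88) and in *Apoe* KO mice (−1.10) and was higher in pair-fed *Apoe* KO than pair-fed WT mice (0.71). *Rdh16* (−0.73), a retinol dehydrogenase gene, was lower in WT mice. The carbonyl reductase genes *Cbr3* (2.56) and *Cbr1* (0.43) and the aldo-keto reductase gene *Akr1b8* (1.28) were higher with EtOH in *Apoe* KO mice. Of 9 genes for non-oxidative ethanol metabolism, 2 were higher and 2 lower in WT mice, and 2 were higher and 5 lower in *Apoe* KO mice. *Ugt1a9*, a glucuronosyltransferase, was higher in WT (2.25) and in *Apoe* KO mice (0.80), and *Sult1a1*, a sulfotransferase, rose by 0.55 and 0.79. *Sult1b1* fell by 0.81 in each genotype, and the carboxylesterase gene *Ces1d* was lower in WT (−0.51) and in *Apoe* KO mice (−1.01). *Cbr1* (0.30, adjusted p = 0.0756) and *Ugt1a9* (0.69, adjusted p = 0.0774) were not called in *Apoe* KO mice without EtOH-fed mouse 1, and of the 9 genes 1 was then higher and 4 lower. *Ugt1a9* was also higher in pair-fed *Apoe* KO than pair-fed WT mice (1.92).

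**Figure D5:**
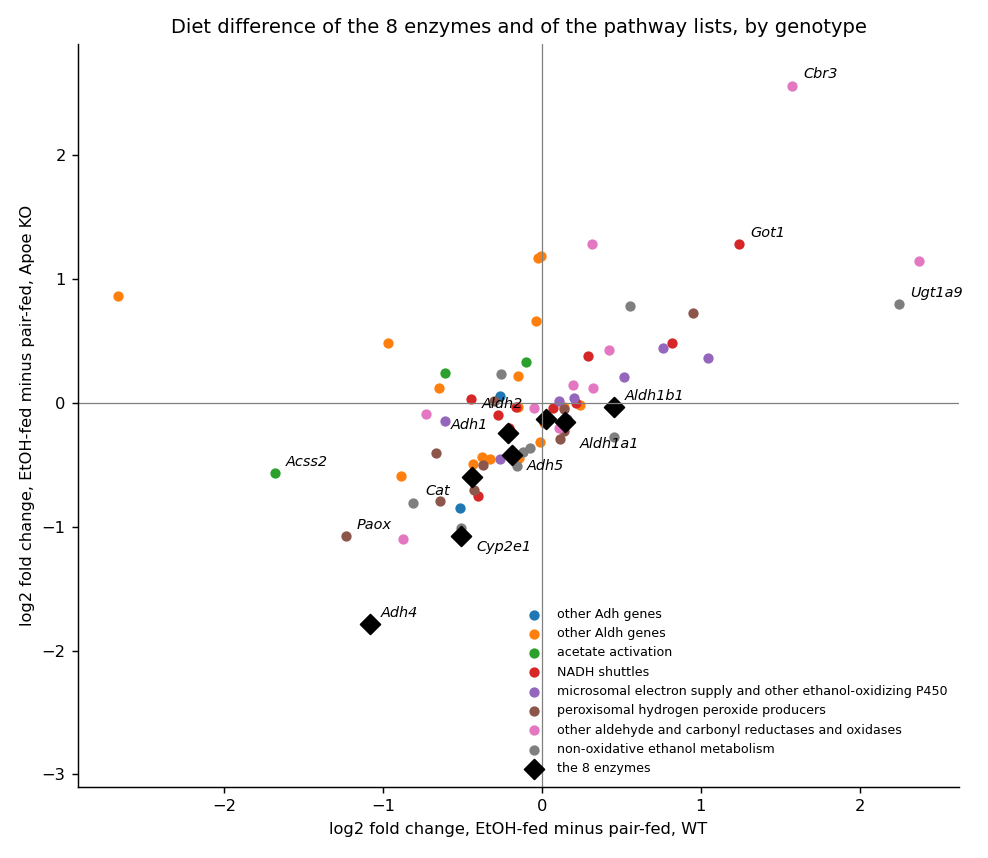
Log2 fold change with EtOH in WT mice (x axis) and in *Apoe* KO mice (y axis) for the 8 enzymes (black diamonds) and the genes of 8 pathway lists (coloured points). *Adh4* lies lowest of all genes shown on the y axis, at −1.78, and *Acss2* lies at −1.68 on the x axis.

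The 2 genes most like each member by Pearson correlation of log2(scaled read count + 1) over the 18 mice are given as a description, and differences between the 4 groups enter it. *Adh4* was most like *Hsd3b3* (0.976) and *Akr1c20* (0.971), genes for enzymes of steroid metabolism. *Cat* was most like *Slc9a3r1* (0.948) and *Slc16a12* (0.946), *Cyp2e1* like *Zfp871* (0.947) and *1700028E10Rik* (0.942), and *Adh5* like *Asgr2* (0.937) and *Nat8f1* (0.929). The 4 remaining members, which were called in no diet comparison, had lower values. They were *Adh1* with *Pcyt2* (0.896) and *Ccdc58* (0.888), *Aldh2* with *BC031181* (0.882) and *Chmp5* (0.871), *Aldh1b1* with *Crbn* (0.865) and *Pitrm1* (0.861), and *Aldh1a1* with *Cyp26a1* (0.842), a retinoic acid hydroxylase gene, and *Abcg2* (0.829).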

How the data were processed

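Liver RNA of 18 mice was extracted with TRIzol and selected for polyA by the authors. Per the labels and methods, reads were trimmed with Trimmomatic, aligned with HISAT2 to GRCm38 and counted with featureCounts; versions, annotation and strand setting are not given in the sources used here. The authors deposited 1 table, in which each mouse has a signal per gene, a read count brought to almost the same sum in all mice and rounded. How it was scaled is not given in the sources used here. The table also holds log2 fold changes and p-values that the authors made with DESeq2 for EtOH-fed *Apoe* KO against EtOH-fed WT mice, and these were not used.

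Of 15247 lines, 195 repeated a gene with identical values and were dropped, which left 15052 genes. Groups were compared with limma 3.58.1 (R 4.3.3), with an intensity trend, on log2(value + 1), with only the groups compared in each fit and all 18 mice for the interaction. Ratios were compared by exact permutation tests (scipy 1.17.1). The limma and permutation steps were tested on simulated data. Members and lists were chosen with earlier results of these data known. Genes named are the 8 members, up to 4 genes per list and comparison with the largest called change, the 2 genes most like each member, and *Apoe* and *Xist*. A gene that this rule would name is not reported here. Reads per mouse were estimated from the spacing of low values, and the depth of 2 EtOH-fed WT mice (2 and 5) was not resolved. Gene positions and exon lengths come from GENCODE M21, and promoter sequences from RefSeq, which matched 7 of the 8 members. Alternatives were size factors, a pseudocount of 0.1, a mean value of at least 50, array quality weights, all groups in the fit, a replicate block and each mouse left out. For the lists, leaving out EtOH-fed *Apoe* KO mouse 1 was chosen after seeing the data.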

Additional observations from a re-analysis of the deposited data

Results flagged for a closer look

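Values were flagged by the gap of the extreme value divided by the range of the group. Of 48 sets of values (8 genes and 4 ratios in 4 groups), 2 were flagged. Chance gives about 1 in 20, or about 2.4 of the 48, so that the 2 flags are no more than chance gives. *Adh1* in pair-fed *Apoe* KO mouse 2 was the lowest of 5 (80181, against 87547 to 89516), with a gap of 0.798 of the range. The log2 ratio of *Cat* to *Adh1* in EtOH-fed *Apoe* KO mouse 4 was the highest of 4, with a gap of 0.946 of the range. That mouse had the lowest *Adh1* of its group (60331, against 77081 to 82074) and the highest *Cat* (44566). It was estimated at 7.88 M reads, the fewest of its group. Counting error there was 0.82% of its *Adh1* value and 0.96% of its *Cat* value. Why this mouse differed was not tested.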

How the results depend on the processing

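Of 432 member fold changes with a mouse left out, 404 kept their direction and their side of the threshold. With a pseudocount of 0.1, or only genes with a mean value of at least 50, all 40 did. The number of members called lower with EtOH in *Apoe* KO mice was 4 in every alternative, and no member was called between the EtOH-fed genotypes in any. In WT mice, 2 members were called with EtOH, 1 with size factors or the replicate block, 3 with array quality weights or all 4 groups in the fit, and 1 to 3 with a mouse left out. Between the pair-fed genotypes it was 0, 1 with the block (*Aldh1b1*, adjusted p = 0.0251), and 0 to 3 with a mouse left out, the 3 without pair-fed WT mouse 3. For the interaction it was 0, 1 with size factors or array quality weights (*Adh4*), and 0 to 1 with a mouse left out. Mice with the same number correlated by at most 0.230 and at least −0.217 in their deviations, and not every pair was above 0.1, so that the numbers were not taken to pair mice. Between the EtOH-fed genotypes the mean correlation was 0.135 for mice of the same number and −0.033 for the others. There, 3 of 4 *Apoe* KO mice correlated best with the WT mouse of their number, against 1 of 4 in each other comparison. In the paired fit *Cat* was not called in WT mice (adjusted p = 0.109).

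Reversed signs concerned uncalled values only. With size factors, the difference between EtOH-fed genotypes was −0.12 for *Cat*, −0.071 for *Aldh2* and −0.055 for *Aldh1b1*. With array quality weights it was −0.00639 for *Cat* and −0.12 for *Aldh1b1*, *Aldh1a1* with EtOH in WT mice was −0.012, and the *Adh1* interaction was 0.045. With the block, *Aldh1b1* was 0.053 with EtOH in *Apoe* KO mice and −0.10 between EtOH-fed genotypes, the *Adh1* interaction was 0.0025, and the *Aldh1b1* to *Aldh2* ratio between EtOH-fed genotypes was −0.19. With a mouse left out, the ranges that crossed 0 were −0.10 to 0.068 for the *Adh1* interaction, −0.15 to 0.053 for *Aldh1b1* and EtOH in *Apoe* KO mice and −0.039 to 0.084 for *Aldh2* and EtOH in WT mice. Between EtOH-fed genotypes they were −0.12 to 0.25 for *Aldh1b1*, −0.013 to 0.10 for *Aldh2*, −0.013 to 0.044 for *Cat*, −0.088 to 0.058 for the *Cyp2e1* to *Adh1* ratio and −0.19 to 0.19 for the *Aldh1b1* to *Aldh2* ratio. The cause was not tested.

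All-gene counts moved by over 1.5 times between the pair-fed genotypes, from 261 to 456 with weights, 392 with the block and 73 to 670 with a mouse left out. Between the EtOH-fed genotypes they went from 706 to 1083 with the block and to 327 to 620 with a mouse left out, for EtOH in WT mice from 1912 to 1186 to 1904, and for the interaction from 428 to 167 to 561. Groups held 4 or 5 mice, and each value of the 8 genes rests on at least 233 reads in the 16 mice with an estimate.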
